A study of Mus musculus with 6 samples.

Results

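The clustered protocadherins are the genes of 3 neighbouring arrays on mouse chromosome 18, named alpha, beta and gamma. They were taken as every protein-coding gene of the count tables whose symbol places it in one of these arrays, by name alone and without regard to its level. This gave 57 of the 55604 genes in the tables: 14 alpha, 22 beta and 21 gamma genes. A further gamma gene, Pcdhgb8, is annotated as a polymorphic pseudogene and was not a member.

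Clustered protocadherins are cadherin-family adhesion proteins that bind identical copies of themselves on a facing membrane. A mammalian neuron switches on its own combination of them, mostly by choosing promoters that CTCF and cohesin bring into contact with distant enhancers, and in mice this combination lets a neuron tell its own branches from those of other cells. Each alpha or gamma gene has its own first exon, which encodes the extracellular and membrane parts and is spliced to constant exons that all genes of the array share. The beta genes have no constant exons. The C-type genes Pcdhac1, Pcdhac2, Pcdhgc3, Pcdhgc4 and Pcdhgc5, at the ends of the alpha and gamma arrays, are known for steadier expression than the other genes, which are called variable here.

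The libraries came from brain RNA of C57BL/6 mice, 3 after intraperitoneal injection of 4-aminopyridine (4-AP), a blocker of voltage-gated potassium channels, and 3 labelled untreated. No sham injection, brain region, age, sex or time after injection is given in the labels, nor whether each library is a separate animal, so p-values measure only the spread between these samples. RNase R, which degrades linear RNA and spares circles, was applied before library construction. The series describes the injected animals as a status epilepticus model, compares them with control mice and calls the brain tissues 3 paired ones, without saying what a pair shares. Counts per gene do not separate reads of circular RNA from reads of linear RNA that escaped the digestion.

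The exons decide what can be counted for each gene. On mm10 the alpha array runs from 36930184 to 37187661 on chromosome 18, the beta array from 37264938 to 37524479 and the gamma array from 37661793 to 37841873, all on the plus strand. All 22 beta genes have 1 exon in GENCODE M21, and none of the alpha or gamma genes does. All 14 alpha genes share the same 2860 exonic bases, and all 21 gamma genes share 2116, so a read there cannot be given to 1 gene. The median share of exonic bases that no other gene covers was 46.4% in alpha, 54.8% in gamma and 100% in beta genes. Pcdha4 had 0 counts in each library although it holds the constant alpha exons, and so did Pcdhga10 with the constant gamma exons, so reads of constant exons were not added to every gene that holds them.

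Some members could hardly be measured. Pcdhga10 has 0 bases of its own, since an antisense transcript, Gm26672, covers its variable exon, and Pcdha4 has 404. Pcdha11 had 5 counts over the 6 libraries, with 44.3% of its exonic bases under antisense genes, and Pcdhb12 had 3 counts with 63.5% under the antisense gene Gm37446. Pcdhb1, with no overlap, had 1 count. A count of 0 allows up to 3 counts, which is 0.778 to 2.19 CPM (counts scaled to a library size of 1000000) per library, and is not read here as absence of the RNA.

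Total counts ran from 1507882 to 2721287 in the 4-AP libraries and from 2355610 to 3409055 in the controls. Members took 486 to 1025 of these counts in the 4-AP libraries and 1039 to 1824 in the controls. The 10 most abundant genes of a library took 25.04% to 38.5% of all counts after 4-AP and 14.7% to 27.9% in controls, and the libraries were therefore scaled by trimmed mean of M-values. Without that scaling the share of all counts on members was 0.0332%, 0.0377% and 0.0322% after 4-AP and 0.0563%, 0.0535% and 0.0441% in the controls, so the groups did not overlap on either scale.

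The comparison of 4-AP with control brain showed a lower summed level of clustered protocadherin RNA and no single gene that passed the test. The 57 genes together had 398, 366 and 355 CPM after 4-AP and 500.4, 473 and 464 in the controls. Every 4-AP library lay below every control. The mean was 373 ± 22.02 CPM against 479 ± 19.1 (SD, n = 3 each), a ratio of 0.779 or -0.36 on the log2 scale, larger than the spread between libraries of a group. This sum is a description over chosen genes and has no p-value. In bulk RNA, fewer cells that express these genes and less RNA per cell cannot be told apart. Neither can be told from a difference between samples in the RNase R digestion.

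The alpha genes summed to 69.1, 74.7 and 83.3 CPM after 4-AP and to 108, 88.2 and 87.5 in controls. The groups did not overlap, with a log2 ratio of means of -0.32, but the gap between the highest 4-AP and the lowest control library was narrower than the range within either group. The beta genes summed to 104, 88.6 and 87.7 CPM against 103, 120 and 120 (log2 ratio -0.29), and here 4-AP replicate 1 overlapped control replicate 1. The gamma genes, with the most counts, summed to 225, 203 and 184 CPM against 289, 265 and 256. Their groups did not overlap, with a log2 ratio of -0.40. Here too the gap between the groups was narrower than the range within either group.

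**Figure D1:**
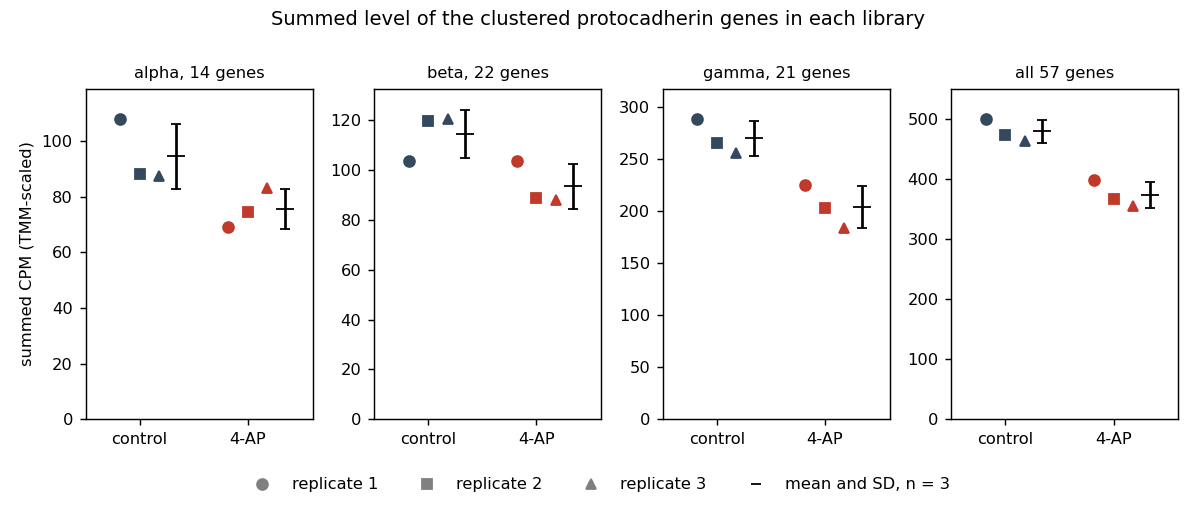
Summed CPM (scaled by trimmed mean of M-values, linear axis from 0) of the alpha, beta and gamma genes and of all 57 genes in each library, with symbols for the replicate and bars for the mean and SD of 3 libraries. The 4-AP libraries lie below the controls in the alpha and gamma panels and in the panel of all genes (355 to 398 against 464 to 500.4 CPM), and overlap with them in the beta panel.

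Of the 57 genes, 40 had enough counts to test: 9 alpha, 12 beta and 19 gamma genes. None of the 40 reached a Benjamini-Hochberg adjusted p of 0.05 in the quasi-likelihood test of edgeR over 11388 genes, of which 0.843% did (0.509% lower and 0.334% higher). DESeq2 and limma-voom also called 0 of them. At an unadjusted p under 0.05, edgeR gave 5 lower members and 0 higher, DESeq2 2 lower of 55 with a p, and limma-voom 5 lower. Among all tested genes 7.57% were lower and 6.29% higher at that level. All 4-AP libraries lay below all controls in 8 of the 40 (20%), against 10.4% of all tested genes, and above them in 0, against 8.36%. The 8 genes were Pcdha5, Pcdha12, Pcdhac2, Pcdhb16, Pcdhb19, Pcdhb20, Pcdhga12 and Pcdhgc5. The log2 fold change was below 0 in 30 of the 40 (75%), against 51% of all tested genes. These shares describe genes that passed a filter on low counts, and neighbouring genes of one array are not independent of each other.

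The median log2 fold change of the tested members was -0.29, against -0.01 over all tested genes. It was -0.17 in the alpha genes (6 of 9 below 0), -0.24 in the beta genes (8 of 12) and -0.37 in the gamma genes (16 of 19). Single genes ranged from -1.32 in Pcdha5 to 0.53 in Pcdha6. The filter asked for 3.94 unscaled CPM in any 3 libraries, and 13 of the 40, with Pcdha5, Pcdha12, Pcdhb16 and Pcdhb20 among them, reached it in all 3 controls but in fewer 4-AP libraries, Pcdha5 in 0. These genes were therefore more likely to be tested with a lower level after 4-AP. Of the 17 members past the filter level in all 6 libraries, 12 lay below 0. In 4 of the 17 all 4-AP libraries lay below all controls. The same shares over all genes past that level in all 6 libraries were not computed. With no filter, 38 of the 55 detected members lay below 0, with a median of -0.32 against -0.09 over all genes. The share of all genes below 0 was not computed without the filter, so the count of 38 has no background beside it. The 15 genes with some counts but too few to test summed to 25.4, 26.1 and 29.2 CPM after 4-AP and to 30.2, 32.2 and 33.9 in controls, again without overlap.

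**Figure D2:**
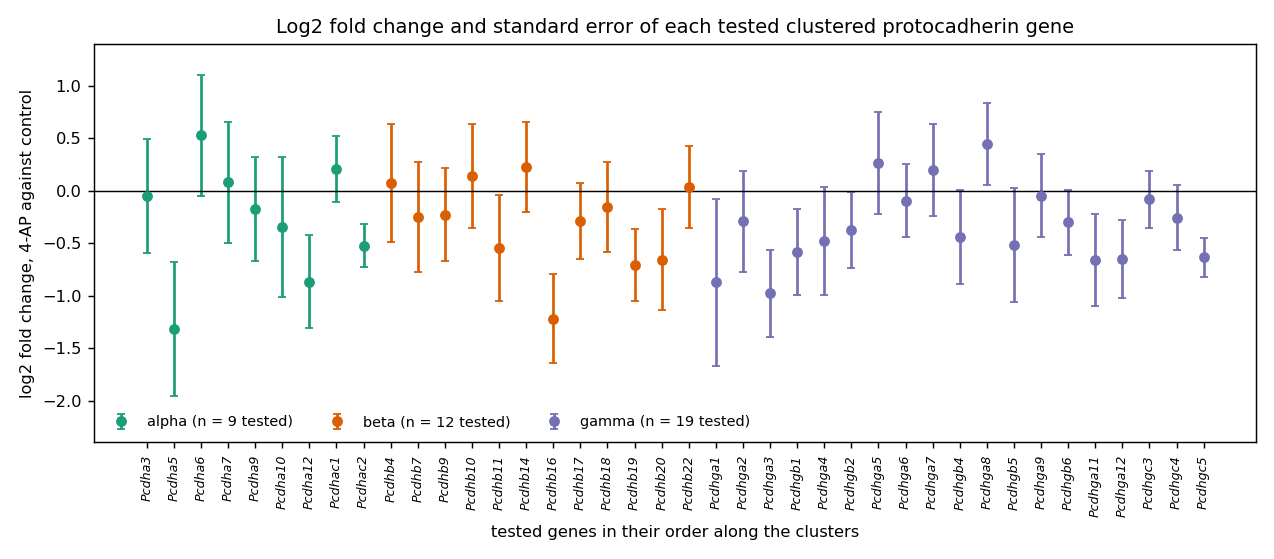
Log2 fold change of 4-AP against control (points) with its standard error (bars) for the 40 tested genes, in their order along the arrays and coloured by array. Points lie below 0 in 30 of 40 genes, from -1.32 to 0.53, and no gene passed the adjusted test.

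Pcdhgc5, the last gene of the gamma array and, as background, a gene of forebrain neurons whose protein has been found with GABA-A receptors in rodents, was the member nearest to the threshold. It had 75.6, 60.4 and 49.7 CPM after 4-AP and 104, 87.1 and 97.3 in the controls, so that the groups did not overlap. Its log2 fold change was -0.63 (SE 0.18, edgeR adjusted p = 0.0962). With total counts as the only scaling it was -0.85 and passed (edgeR adjusted p = 0.0263), as it did with no filter on low counts (adjusted p = 0.0417). It also passed with the replicate number as a block in the fit. In 6 leave-one-out fits it never passed, with values from -0.79 to -0.51 and adjusted p from 0.0941 to 0.354.

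Pcdhac2, the last alpha gene, which in mice is needed for the even spread of serotonergic axons, had 31.9, 26.4 and 32.9 CPM after 4-AP and 45.9, 41.2 and 42.8 in controls. The groups again stood apart, with a log2 fold change of -0.52 (SE 0.21, edgeR adjusted p = 0.233). The other C-type genes overlapped between groups. Pcdhgc3, which promotes dendrite branching in mouse cortical neurons, had 13.7, 17.5 and 20.5 CPM against 21.7, 18.2 and 14.3 (log2 fold change -0.08, SE 0.27). Pcdhgc4, which neurons need for survival in mice, had 14.3, 20.4 and 9.50 CPM against 23.9, 18.4 and 12.05 (log2 fold change -0.26, SE 0.31). In Pcdhac1 the values were 13.0, 14.3 and 13.9 CPM against 16.3, 8.82 and 10.7 (log2 fold change 0.21, SE 0.32). Control replicate 1 was the highest library for Pcdhac1, Pcdhac2, Pcdhgc3, Pcdhgc4 and Pcdhgc5 alike.

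**Figure D3:**
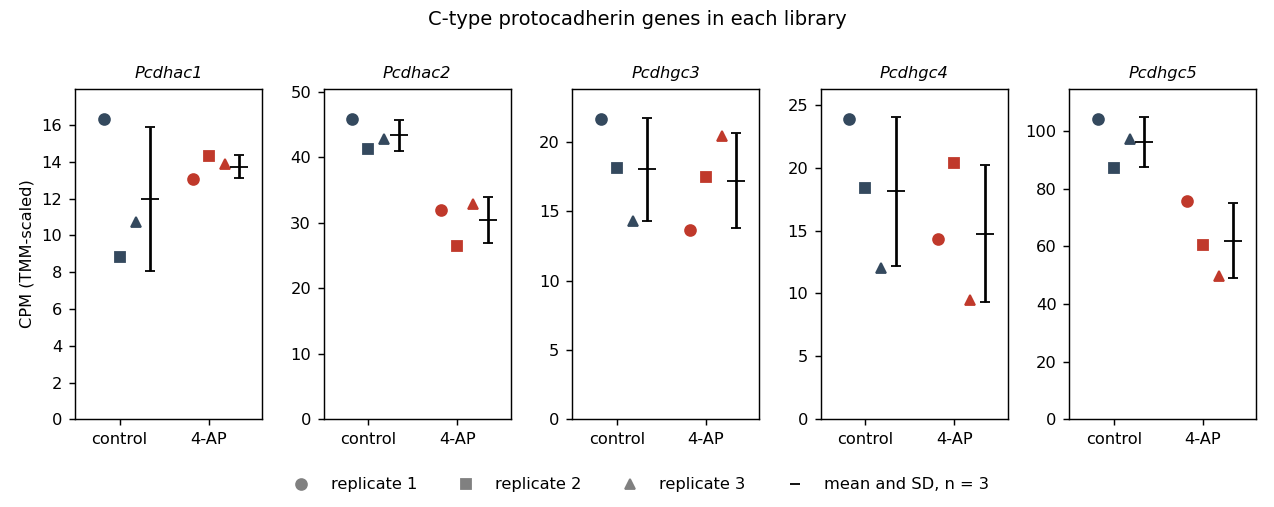
CPM (linear axes from 0, each with its own range) of the 5 C-type genes in each library, with symbols for the replicate and bars for the mean and SD of 3 libraries. Pcdhgc5 (49.7 to 75.6 against 87.1 to 104 CPM) and Pcdhac2 (26.4 to 32.9 against 41.2 to 45.9) separate the groups, and Pcdhac1, Pcdhgc3 and Pcdhgc4 do not.

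Pcdhgc5 and Pcdhac2 were the members with the highest CPM and together made up 44.6% of the difference of 106 CPM in the summed level. They were singled out after their values were seen. The other 55 genes still summed to 290.1, 279 and 273 CPM after 4-AP against 350.1, 345 and 323 in controls, without overlap, with a log2 ratio of -0.27. For the 52 variable genes alone the sums were 249, 227 and 229 CPM against 288, 299 and 286, with a log2 ratio of -0.31. The remaining C-type genes, Pcdhac1, Pcdhgc3 and Pcdhgc4, summed to 45.7 ± 5.77 CPM against 48.1 ± 12.7 (SD, n = 3 each), and the groups overlapped.

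Among the variable gamma genes, the 12 A-type genes (Pcdhga) summed to 71.1, 69.0 and 68.7 CPM after 4-AP and to 83.9, 85.8 and 82.6 in controls, with little spread in either group. The 6 B-type genes (Pcdhgb) summed to 50.2, 35.7 and 35.8 CPM against 55.0, 55.8 and 49.5, and 4-AP replicate 1 overlapped the controls. Pcdhga3 had the smallest p of the variable gamma genes, at 9.78, 3.22 and 5.85 CPM against 15.1, 9.34 and 10.7 (log2 fold change -0.98, SE 0.42, edgeR adjusted p = 0.281). It overlapped between groups, and the value went to -1.46 without 4-AP replicate 1 and to -0.54 without 4-AP replicate 2. In the positive direction Pcdhga8 was at 0.45 (SE 0.39), with 7.82, 10.4 and 8.04 CPM against 5.34, 8.56 and 5.36, and Pcdhga5 at 0.27 (SE 0.49), with 4.56, 7.50 and 5.12 CPM against 6.91, 5.19 and 2.23. Both overlapped between groups.

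Pcdhb16 had the smallest p of the beta genes. Its level was 4.56, 3.93 and 4.39 CPM after 4-AP, against 10.1, 13.0 and 6.25 in controls, without overlap, a log2 fold change of -1.22 (SE 0.43, edgeR adjusted p = 0.170). Pcdhb19 was at 8.48, 7.50 and 9.50 CPM against 10.1, 14.01 and 17.4, also without overlap (log2 fold change -0.71, SE 0.34, edgeR adjusted p = 0.359). The other beta genes with high CPM did not separate the groups. Pcdhb17 had 12.4, 6.43 and 12.4 CPM against 8.17, 13.5 and 15.2 (log2 fold change -0.29, SE 0.36), and Pcdhb22 had 16.3, 6.79 and 8.04 against 8.17, 8.04 and 13.8 (0.04, SE 0.39). Pcdhb14, at 7.17, 5.72 and 8.04 CPM against 7.54, 4.93 and 4.91, and Pcdhb10, at 4.56, 6.07 and 4.39 against 2.83, 4.41 and 7.14, had log2 fold changes of 0.23 and 0.14. Leaving out single libraries took Pcdhb22 from -0.43 to 0.35 and Pcdhb10 from -0.13 to 0.48, so no direction is given for them. Beta genes are close paralogs, and reads that match several of them may have been split or dropped.

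In the variable alpha genes the counts were lowest. Pcdha5 had 0, 2.501 and 3.65 CPM after 4-AP and 5.66, 5.19 and 4.91 in controls, from 12 counts against 49. Its log2 fold change was -1.32 (SE 0.64, edgeR adjusted p = 0.363), and it moved to -0.83 without 4-AP replicate 1 and to -1.76 without 4-AP replicate 3. Pcdha12 had 2.61, 4.29 and 6.58 CPM against 9.11, 8.30 and 6.69, with a log2 fold change of -0.87 (SE 0.44). Neither gene overlapped between groups. Pcdha6 had 3.91, 3.93 and 8.04 CPM against 5.97, 1.56 and 3.12 (log2 fold change 0.53, SE 0.58). All 12 variable alpha genes summed to 24.1, 33.9 and 36.5 CPM against 45.9, 38.1 and 33.9, and the groups overlapped. Their log2 ratio of means was -0.32, like that of the whole alpha sum, so leaving out both C-type genes ended the separation of the groups but hardly moved the ratio.

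Relative to one another the arrays kept similar shares. Alpha genes took 20.4% ± 3.04 of the members' counts after 4-AP and 19.7% ± 1.66 in controls, beta genes 24.99% ± 0.970 and 24.0% ± 2.89, and gamma genes 54.6% ± 2.46 and 56.3% ± 1.31 (SD, n = 3 each). The share on C-type genes was 37.0% ± 1.23 against 39.1% ± 2.94. All 4 of these shares overlapped between the groups. The precision is limited by depth: in 4-AP replicate 3, with 486 member counts, the alpha share of 23.5% has a Wilson 95% interval of 19.9% to 27.4%, which covers counting error only.

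Levels were compared between genes as CPM per kilobase of exon that no other gene covers, for the 55 genes with at least 1000 such bases. Pcdhgc5 stood highest at a mean of 17.2 over the 6 libraries (10.8 to 22.7), followed by Pcdhac2 at 12.2 (8.73 to 15.2) and Pcdhgc3 at 9.68 (7.52 to 11.9). These ranges overlap between neighbours in the order. Pcdhgc5 is annotated with 3 exon blocks, the fewest of the gamma genes, and 4606 unshared bases. Whether all reads in these bases come from its own transcripts was not tested. Next came Pcdhga11 at 6.04, Pcdhgb6 at 5.23, Pcdhac1 at 5.02 and Pcdhgc4 at 4.72 CPM per kilobase, which cannot be ranked among each other beyond their spread. The 50 variable genes had a median of 1.56, and in each of the 6 libraries the median of the 5 C-type genes, 7.52 to 11.9, was above that of the variable genes, 1.23 to 1.70.

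By array, the variable genes had median levels per kilobase of 2.30 in gamma A, 2.42 in gamma B, 1.56 in alpha and 0.971 in beta. The beta genes, which have no intron, were counted in the RNase R-treated RNA at 0.0167 to 2.44 CPM per kilobase, with 1587 counts in all. Within the beta array the level went up with the order from Pcdhb1 to Pcdhb22 (Spearman's rho 0.49 over 22 genes), and less so in the variable alpha (0.21, 11 genes) and variable gamma genes (0.06, 17 genes). These correlations run across genes that share libraries and are descriptions only.

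**Figure D4:**
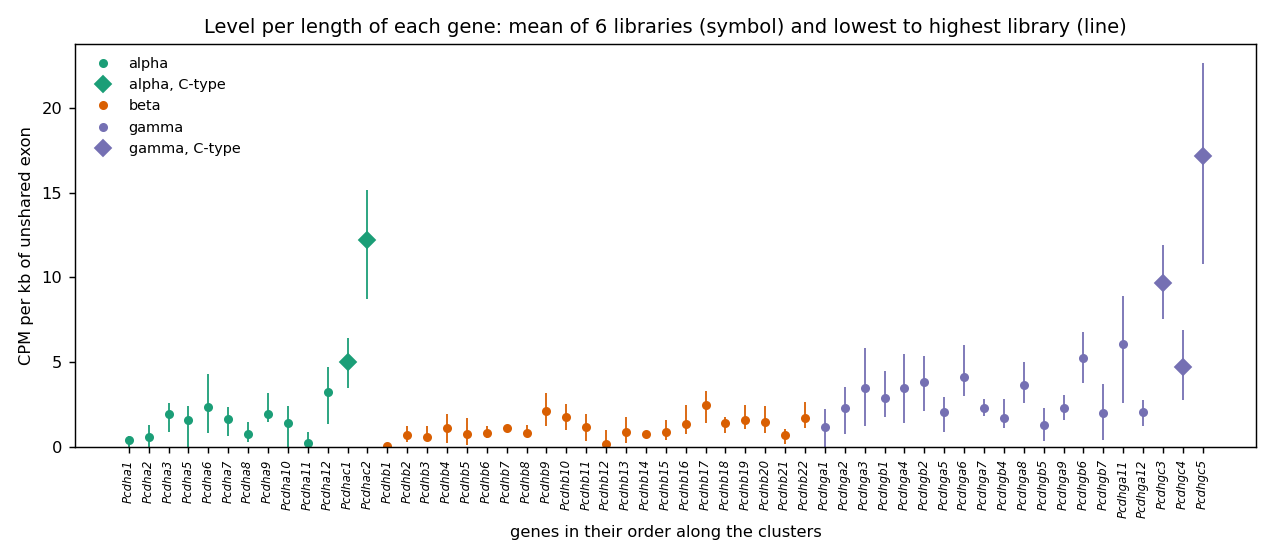
CPM per kilobase of unshared exon (linear axis from 0) for the 55 genes with at least 1000 unshared bases, in their order along the arrays. Symbols show the mean of 6 libraries and lines the lowest to highest library. The C-type genes (diamonds, 4.72 to 17.2) lie above most variable genes, and the beta genes stay between 0.0167 and 2.44.

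Counts of the tested members scattered about as much within groups as those of other genes of like depth. The median Pearson chi-square per degree of freedom, which is near 1 for pure counting noise, was 1.94 over 40 members, 2.04 in alpha, 1.61 in beta and 1.96 in gamma genes. It was 1.80 over 1772 tested genes with total counts between the quartiles of the members. Beta genes were also set beside other protein-coding genes with 1 exon, of which 268 were tested. These had a median log2 fold change of -0.10 with 60.8% below 0, against -0.01 and 50.6% of 10674 genes with several exons. The difference between beta and other single-exon genes was not tested.

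The genes around the arrays gave sums that overlapped between groups. The 10 listed neighbours, from Ndufa2 to Hdac3 along the chromosome, summed to 190 to 204 CPM after 4-AP and 199 to 209 in controls. Of 8 tested, 0 passed the edgeR test and 4 lay below 0, with a median log2 fold change of 0.05. Diaph1, a formin gene that borders the gamma array, was at -0.35 (SE 0.24), with 29.3, 20.7 and 28.5 CPM against 41.5, 26.7 and 29.9. Taf7, a transcription factor subunit gene between the beta and gamma arrays, had too few counts to test, with 0, 3.57 and 0 CPM against 3.46, 3.37 and 3.12. It was named outside the rule for partner genes, its groups overlapped, and no direction is read from it. The difference between members and neighbours was not tested.

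Protocadherins outside the arrays went in both directions. Of 12 such genes 11 were tested, 0 passed, 6 lay below 0 and the median was -0.09. Pcdh15, a mechanotransduction protein of hair cells, was at 114, 98.3 and 105 CPM against 72.6, 77.0 and 62.0, without overlap (log2 fold change 0.57, SE 0.17, edgeR adjusted p = 0.0999). Pcdh1 had 358, 266 and 275 CPM against 415, 352 and 457 (-0.45, SE 0.15), with overlap. Pcdh9 had 105, 106 and 87.0 CPM against 151, 122 and 130, without overlap (-0.43, SE 0.16). In the positive direction Pcdh11x had 41.1, 70.4 and 46.8 CPM against 42.4, 39.4 and 37.5 (0.43, SE 0.21), with overlap. Total-count scaling brought Pcdh1 past the threshold (-0.66, adjusted p = 0.0306).

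Of the large Fat, Dachsous and Celsr cadherins 7 of 9 were tested, and 1 passed. Fat1, a regulator of cell polarity, rose by 0.67 on the log2 scale (SE 0.15, edgeR adjusted p = 0.0389), from 214, 160 and 159 CPM in controls to 256, 311 and 279, without overlap. It lost its call in 5 of 6 leave-one-out fits, all but the fit without control replicate 1 (0.83, adjusted p = 0.00871), and also under total-count scaling (0.46, adjusted p = 0.226), with limma-voom (adjusted p = 0.0559) and with no robust fit (adjusted p = 0.0707). Celsr2, a planar polarity receptor, had 363, 259 and 327 CPM against 511, 370.1 and 543, without overlap (-0.59, SE 0.16, edgeR adjusted p = 0.0863). It was called lower by DESeq2 (-0.58, adjusted p = 0.0299), with total counts (adjusted p = 0.0104) and with no filter (adjusted p = 0.00813), but in 0 of 6 leave-one-out fits. Its paralog Celsr1 had 12.4, 8.93 and 13.2 CPM against 16.97, 17.6 and 29.9, without overlap (-0.92, SE 0.31). Dchs2, a ligand for Fat cadherins, stood in the positive direction at 13.7, 20.01 and 12.4 CPM against 7.86, 8.56 and 12.9 (log2 fold change 0.72, SE 0.33), and overlapped between groups.

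Genes that select protocadherin promoters or set their chromatin showed no called change. Of 22 genes, among them those of CTCF, cohesin, Smchd1 and the DNA methyltransferases, 21 were tested, 0 passed and 10 lay below 0, with a median of 0.004 on the log2 scale. Wapl, which releases cohesin from DNA, was at 46.9, 69.7 and 30.0 CPM against 78.9, 87.9 and 66.0 (-0.63, SE 0.23, edgeR adjusted p = 0.203), and passed without 4-AP replicate 2 (-0.98, adjusted p = 0.0391). Wiz, a zinc-finger partner of the histone methyltransferase G9a, had 14.3, 17.9 and 14.6 CPM against 20.7, 21.01 and 19.6, without overlap (-0.37, SE 0.25). In the positive direction Dnmt3a, a DNA methyltransferase, had 296, 259 and 344 CPM against 281, 228 and 240.1 (0.26, SE 0.15), and the cohesin subunit gene Stag1 had 345, 417 and 395 against 339, 324 and 357 (0.18, SE 0.14).

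Among 21 genes for cytoplasmic partners 20 were tested and Cyfip2 fell. Cyfip2 belongs to the WAVE complex, an actin regulator to which the cytoplasmic parts of several protocadherins bind. It had 374, 391 and 379 CPM after 4-AP and 678, 557 and 571 in controls, without overlap (log2 fold change -0.66, SE 0.14, edgeR adjusted p = 0.0210). Its call was lost in 5 of 6 leave-one-out fits, all but the fit without 4-AP replicate 2, with values from -0.70 to -0.55 and adjusted p up to 0.132, and also with no robust fit (adjusted p = 0.0535). Ptk2b, the kinase Pyk2, which alpha and gamma constant domains inhibit, was at 256, 251 and 269 CPM against 291, 344 and 444, without overlap (-0.47, SE 0.15, edgeR adjusted p = 0.144). It passed under total-count scaling (-0.67). Ret, a receptor kinase reported with alpha and gamma protocadherins, was at 7.17, 17.9 and 16.8 CPM against 11.9, 3.11 and 4.46 (1.12, SE 0.46) and passed without control replicate 1 (1.94, adjusted p = 0.0465). Nlgn1, a postsynaptic adhesion protein bound by gamma protocadherins in mice, had 299, 329.8 and 296 CPM against 215, 232 and 283, without overlap (0.34, SE 0.14, edgeR adjusted p = 0.277). In all, 13 of the 20 lay below 0, with a median of -0.20. The list summed to 3067 to 3273 CPM after 4-AP and 3400 to 3954 in controls, without overlap. This separation rested on Cyfip2. The sum of the other genes was higher in 4-AP replicate 1 than in control replicate 1.

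The proteases that shed and cut protocadherins, ADAM and MMP enzymes and gamma-secretase, were all tested, and 0 of 8 passed (median -0.04). Nicastrin (Ncstn), the substrate receptor of gamma-secretase, had 20.2, 16.8 and 16.8 CPM against 23.9, 31.6 and 27.2 (-0.63, SE 0.24), and its partner Aph1a 36.5, 26.4 and 37.3 against 24.2, 26.2 and 23.7 (0.41, SE 0.22). Neither gene overlapped between groups.

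Markers of cell types and regions moved with the same groups, so these values stand beside the lower protocadherin sums. The 9 markers of glutamatergic neurons summed to 2079 to 2758 CPM after 4-AP and 3314 to 3458 in controls; 3 of 9 fell, 8 lay below 0 and the median was -0.74. The 9 pan-neuronal markers summed to 2613 to 3016 CPM against 3052 to 3411, with 0 called, 7 below 0 and a median of -0.28. GABAergic markers overlapped between groups (333 to 460 against 330 to 452 CPM; 0 of 8 called). The 12 hypothalamic markers stood at 51.1 to 81.9 CPM against 10.6 to 21.7, and 5 of them were tested. Oxt, Avp and Trh rose, but they passed the filter on low counts only through the 4-AP libraries. Pomc (log2 fold change -0.60) and Npy (0.23) overlapped between groups.

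Of the other lists, the 8 astrocyte markers summed to 1581 to 1975 CPM against 2251 to 2380, but this rested on Slc1a2, a glutamate transporter, which fell (1138, 1224 and 1035 CPM against 1703, 1782 and 1758). The median of the list was 0.15, 2 of 8 genes lay below 0, and without Slc1a2 the sums overlapped (546 to 751 against 493 to 640 CPM). The 8 microglia markers summed to 455 to 561 CPM against 375 to 441, with 0 called, 3 of 7 tested below 0 and a median of 0.26. Without Cx3cr1, a chemokine receptor, the microglial sums overlapped (128 to 170.4 against 129 to 162 CPM). The 8 choroid plexus and ependymal markers stood at 24.1 to 95.4 CPM against 11.4 to 23.9, with 0 called, and overlapped without Ttr (18.9 to 45.3 against 11.4 to 22.6). Oligodendrocyte, endothelial and serotonergic markers overlapped between the groups, with 0 called. Without Ddc the serotonergic sums stood apart (7.17 to 9.50 CPM against 1.56 to 3.77), but this rested on Slc18a2. It had 3.26, 6.43 and 8.77 CPM against 1.89, 0.778 and 2.68. Tph2, Slc6a4 and Fev each overlapped between groups, the means of Slc6a4 and Fev were lower after 4-AP, and none of these genes had enough counts to test. The sums of glutamatergic and hypothalamic markers also stood apart without the most abundant gene of each list. The pan-neuronal sums without Snap25 hardly did, with a highest 4-AP library of 2290 CPM and a lowest control of 2298. Without Syn1, or without Rbfox3, the pan-neuronal sum was higher in 4-AP replicate 1 than in control replicate 3, so this separation rested on single genes. No marker of these lists was at 0 in every library, and neuronal and glial markers were detected, as the labelled tissue, brain, would hold them. The part of such shifts in the lower protocadherin level was not tested.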

How the data were processed

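RNA treated with RNase R was sequenced from 6 mouse brain samples. The authors deposited whole-number read counts per gene, 1 table per sample. The submitters' processing notes name STAR 2.5.3a, featureCounts and the build mm10. Which annotation and strand option were used, and how reads matching several genes were handled, is not given in the sources used here.

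Identifiers were matched to GENCODE M21 (54723 of 55604). GENCODE M21 gives the symbol Pcdha11 to 2 members, of which 1 is named Pcdha10 after its RefSeq gene. The low-count filter was filterByExpr (count 10, total 15). After scaling by trimmed mean of M-values, edgeR 4.0.16 in R 4.3.3 was used for the test (robust quasi-likelihood test, group as the only term, Benjamini-Hochberg adjustment over 11388 genes, threshold 0.05). The biological coefficient of variation was 0.18. The fit was tested on simulated data, where it called 13.1% of 1.5-fold, 62.7% of 2-fold and 100% of 4-fold changes. A change of 1.5-fold or less in a single gene would therefore mostly be missed. The tested members had a median of 101 counts over 6 libraries, against 368 for all tested genes. Whether the 62.7% for 2-fold changes holds at the depth of the members was not tested. CPM are counts per 1000000 of scaled library size. Every pair of libraries differed beyond counting noise. Chi-square per degree of freedom was smallest, at 7.79, between 4-AP replicate 2 and control replicate 3. Control replicate 3 was nearer to the 4-AP libraries (19.8, 7.79 and 8.47) than to control replicates 1 and 2 (23.1 and 21.9). Control replicates 1 and 2 were near each other (8.26). By this measure the libraries did not sort by group.

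The members and the lists of partners and markers were chosen with earlier results of these data known, so none of them is independent support. Values in every library are given for the 3 members per array with the highest CPM, the 2 with the smallest p in each direction, and the C-type genes. Partner genes were named when called or by the smallest p, up to 2 per list and direction. The limit of an unadjusted p under 0.2 was added after the values were seen. The values of Taf7 were given outside this rule. Alternatives were other scalings, DESeq2 1.42.0, limma-voom (limma 3.58.1), other filters, leaving out abundant RNA classes, a replicate block, no robust fit, leave-one-out fits and a threshold of 0.1. Leaving out members with antisense overlap and leaving out C-type genes were added after seeing the data.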

Additional observations from a re-analysis of the deposited data

How the results depend on the processing

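The summed level lay below the controls for each of the 3 arrays and for all 57 genes together in every setting that gave a value. The groups of all members stayed apart in each of them. The alpha groups overlapped once C-type genes were left out, and the beta groups overlapped in most settings. Total-count scaling gave log2 ratios of -0.58 for all members, -0.54 for alpha, -0.51 for beta and -0.63 for gamma, and medians of -0.49, -0.38, -0.45 and -0.59. It also moved the median of all genes to -0.22, and relative to that the ratio for all members was -0.36, against -0.35 in the reported fit. In the leave-one-out fits the ratio lay between -0.41 and -0.32 for all members, -0.40 and -0.20 for alpha, -0.38 and -0.23 for beta, and -0.48 and -0.34 for gamma. The medians lay between -0.39 (without 4-AP replicate 1) and -0.18 (without control replicate 2) for all members, -0.35 (without control replicate 3) and -0.065 (without 4-AP replicate 3) for alpha, -0.40 (without 4-AP replicate 1) and -0.12 (without control replicate 2) for beta, and -0.52 (without control replicate 3) and -0.19 (without 4-AP replicate 2) for gamma. The count of called members was 0 in each leave-one-out fit and 1, Pcdhgc5 each time, under total-count scaling, no filter, the replicate block and an adjusted p under 0.1. It was 0 in the other settings. Of all genes, 96 were called in the reported fit, 319 with total counts, 328 with no filter, 265 with the replicate block, 290 at an adjusted p under 0.1, 216 with DESeq2, 55 with no robust fit and 26 to 159 in leave-one-out fits.

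Some uncalled genes near 0 changed sign. With total counts this held for Pcdhac1 (-0.0042), Pcdhb22 (-0.18), Pcdhb10 (-0.041) and Stag1 (-0.016), all of which stayed above 0 relative to the shifted median of all genes (0.21, 0.042, 0.18 and 0.20), and with limma-voom for Pcdhb22 (-0.031). In leave-one-out fits Pcdhb22 ran from -0.43 to 0.35, Pcdhb10 from -0.13 to 0.48, Pcdhgc3 from -0.21 to 0.075, Pcdhb17 from -0.51 to 0.051 and Pcdhga5 from -0.026 to 0.60. The cause of the other sign changes was not tested. The series calls its samples paired, but no label says what a number shares. Same-numbered samples correlated at -0.0022, 0.117 and 0.025 in their deviations from the group means. With 3 libraries per group these values cannot settle whether the numbers mark pairs. The reported fit leaves pairing out, since the labels do not define it. With the replicate block Pcdhgc5 (-0.64, edgeR adjusted p = 0.0497) and Celsr2 (-0.58, adjusted p = 0.0220) were called, and no other named gene gained or lost its call. Members that share over 20% of their exonic bases with other genes could be left out for alpha and beta only, since all gamma genes do. Depth limits single genes: the tested members had a median of 101 counts over 6 libraries.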

Other observations

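Pcdhgb8, the gamma gene annotated as a polymorphic pseudogene, had 2, 12 and 1 counts after 4-AP and 14, 17 and 4 in controls, with a log2 fold change of -0.56 (SE 0.65, edgeR adjusted p = 0.781). Gm36858, an unprocessed pseudogene within the alpha array, had 6, 10 and 0 counts against 10, 3 and 4. The read-through genes Gm42416, Gm37013 and Gm37388, whose annotation spans alpha and gamma exons, had 0 counts in each library.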
